A study of Mus musculus with 24 samples.

Results

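The 38 genes described here encode the enzymes and binding proteins with which a cell disposes of superoxide, peroxides, reactive electrophiles and free metal ions. They are the members of a fixed list of glutathione, thioredoxin, peroxiredoxin, superoxide, metallothionein and NRF2-driven genes, matched by symbol. All 38 were found among the 43430 genes of the count table, 1 row each, and all 38 had enough counts to be tested among 15300 genes. Their RNA was measured in whole cerebellum of 24 mice of about 7 weeks, 1 library per mouse, in 4 genotype groups of 3 males and 3 females.

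The cKO+NDI1 group carries a conditional knockout together with NDI1, a yeast enzyme that oxidises NADH without pumping protons. The cKO group carries the knockout without NDI1, the NDI1 control carries NDI1 without the knockout, and the Cre control carries Cre alone. The sample labels name neither the deleted gene nor the Cre driver. The published study deleted Ndufs4, a subunit of respiratory complex I, with Nestin-Cre, which acts mainly in the lineages of neurons and glia, and placed NDI1 in the Rosa26 locus. The question behind the comparisons is which consequences of complex I loss in the brain persist when NADH can be oxidised by another route. The comparison of cKO with Cre control and that of cKO+NDI1 with cKO share the cKO libraries.

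Superoxide leaks from the respiratory chain, complex I included, and is converted to hydrogen peroxide by superoxide dismutases. Catalase, glutathione peroxidases and peroxiredoxins remove the peroxide, the last 2 families at the expense of glutathione and thioredoxin, which are recharged with NADPH. Many of these genes are induced by NRF2, a transcription factor that KEAP1 holds at a low level until oxidants or electrophiles modify KEAP1, and that binds antioxidant response elements.

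Library totals ran from 7584374 to 19785264 counts and averaged 14575287 in cKO+NDI1, 11619939 in cKO, 15315893 in NDI1 control and 15939006 in Cre control. Ndufs4 had 77.0 to 119 CPM (counts scaled to a common library size) in cKO+NDI1, 67.0 to 133 in cKO, 106 to 199 in NDI1 control and 104 to 164 in Cre control. The groups overlap, and counts summed over a whole gene are an incomplete check of an allele that removes a part of it. The Rosa26 transcript lay between 5.65 and 9.49 CPM in every library labelled as carrying NDI1, and between 23.8 and 47.6 CPM in every other one. Markers of Purkinje cells, summed over 8 genes, had 10600 to 13300 CPM, and markers of granule neurons, also 8 genes, 4570 to 5460 CPM, with no marker at 0 in any group.

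Of the 38 genes, 3 passed the test in cKO against Cre control: the peroxidase gene Gpx3 and the transferase gene Gstm1 were higher, and the catalase gene Cat was lower. In the same comparison 745 of 15300 genes passed, or 4.87% of those tested. With NDI1 added to the knockout, Gpx3 alone passed against cKO, and it was lower; there 32 of 15300 genes passed, or 0.209%. All adjusted p-values come from the quasi-likelihood F test of edgeR, adjusted by Benjamini-Hochberg over the 15300 genes, with 0.05 as the threshold. Each p-value weighs a difference against the spread between mice that group and sex leave, estimated over all 24 libraries.

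**Figure D1:**
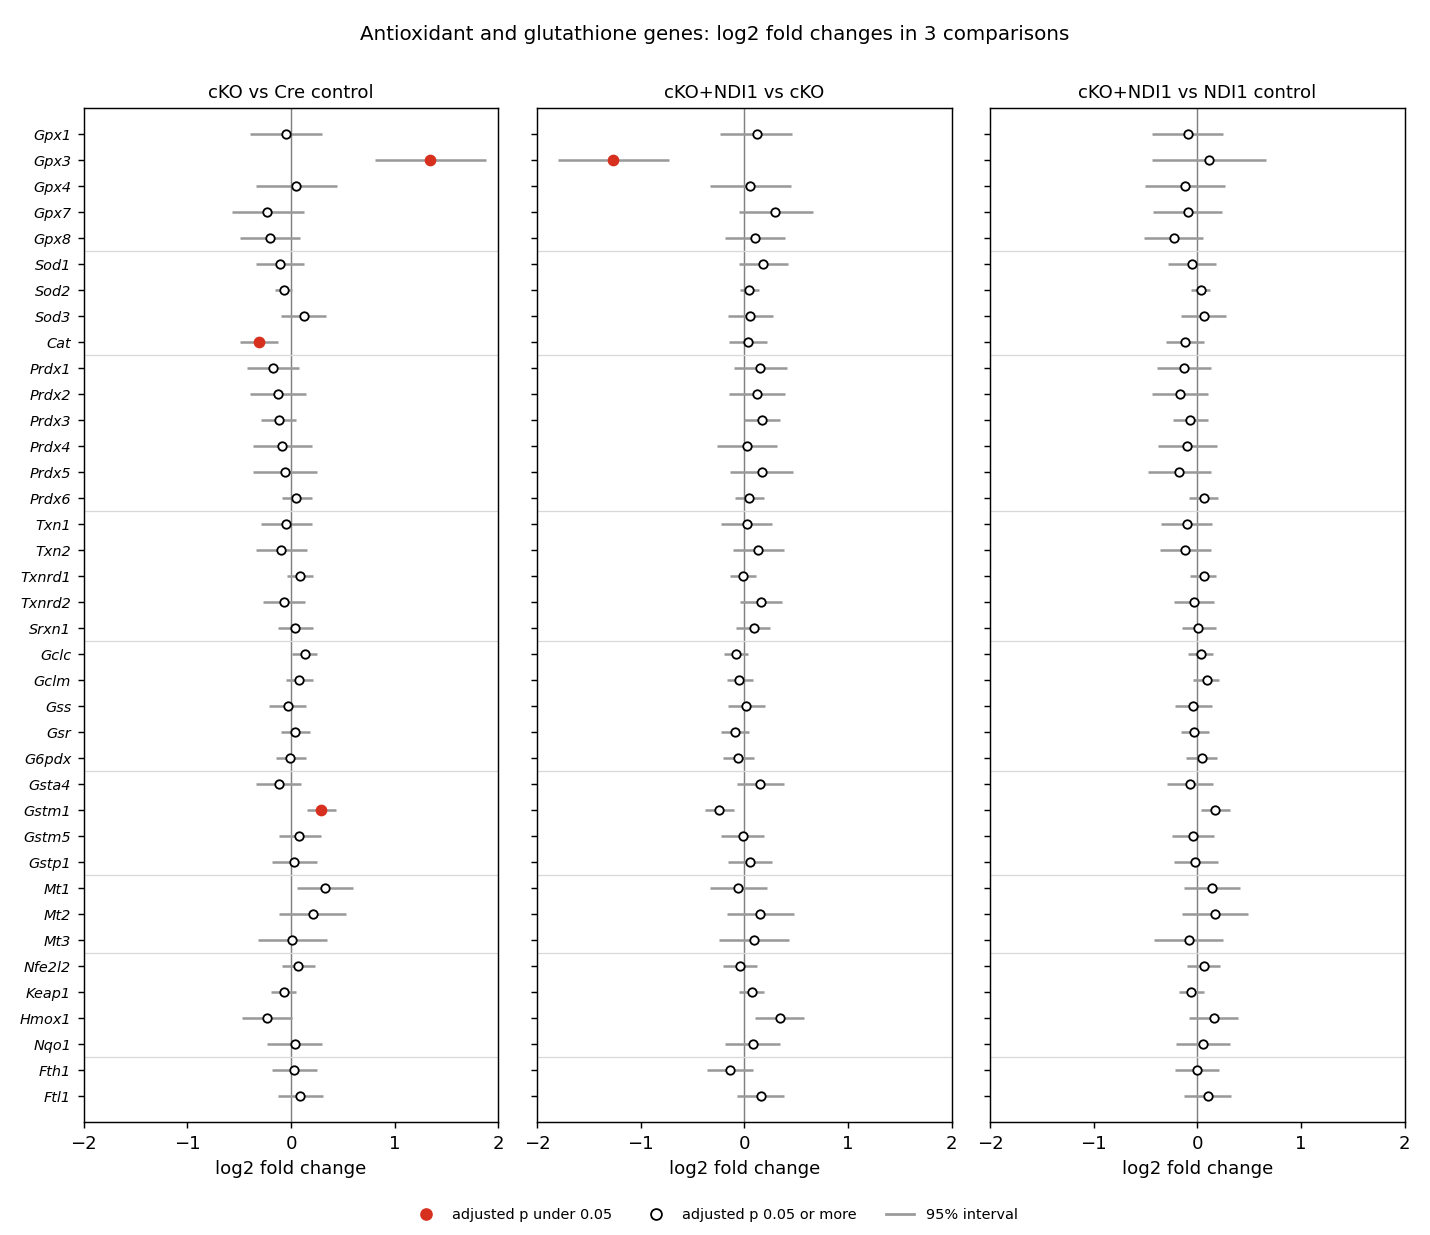
Log2 fold change of each of the 38 genes (rows, grouped by role) for cKO relative to Cre control (left panel) and for cKO+NDI1 relative to cKO (middle) and to NDI1 control (right). Bars are 95% intervals and filled points passed at an adjusted p under 0.05: Gpx3, Cat and Gstm1 in the left panel, Gpx3 in the middle one, and no gene in the right one.

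Over the 38 genes the log2 fold changes in cKO against Cre control centred on 0, with 19 positive and 19 negative values and a median of 0, beside a median of -0.007 over all genes tested. The median of the 38 was -0.14 in males alone and 0.10 in females alone, a difference that was not tested, and -0.07 without the 3 libraries whose levels depended most on gene length. They ran from -0.31 for Cat to 1.34 for Gpx3. The precision was high for most of them: 34 of the 38 had a 95% interval that lay within 0.5 of 0 on the log2 scale, a 1.41-fold change either way. The exceptions were Gpx3, Gpx7, Mt1 and Mt2. The standard error of these fold changes had a median of 0.11 and ran from 0.04 to 0.26.

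Per unit of gene length, the most abundant member was the ferritin heavy chain gene Fth1, at a mean of 8820 TPM (a level per unit of gene length and depth) over 24 libraries. The metallothionein genes Mt3, Mt1 and Mt2 followed, at 3460, 2910 and 1780 TPM, and then Sod1, at 1250 TPM. Lowest were Txnrd2, which encodes mitochondrial thioredoxin reductase, at 5.42 TPM, Hmox1 at 8.27 TPM and Gpx3 at 10.1 TPM. This order depends on the deposited lengths, 12577 bases for Txnrd2, 2890 for Hmox1 and 3116 for Gpx3. In reads per library Txnrd2, at 107 to 414, lay above Hmox1, at 36 to 132. Gpx3 was thus among the least abundant members even though it changed most, with 35 to 224 reads per library.

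**Figure D2:**
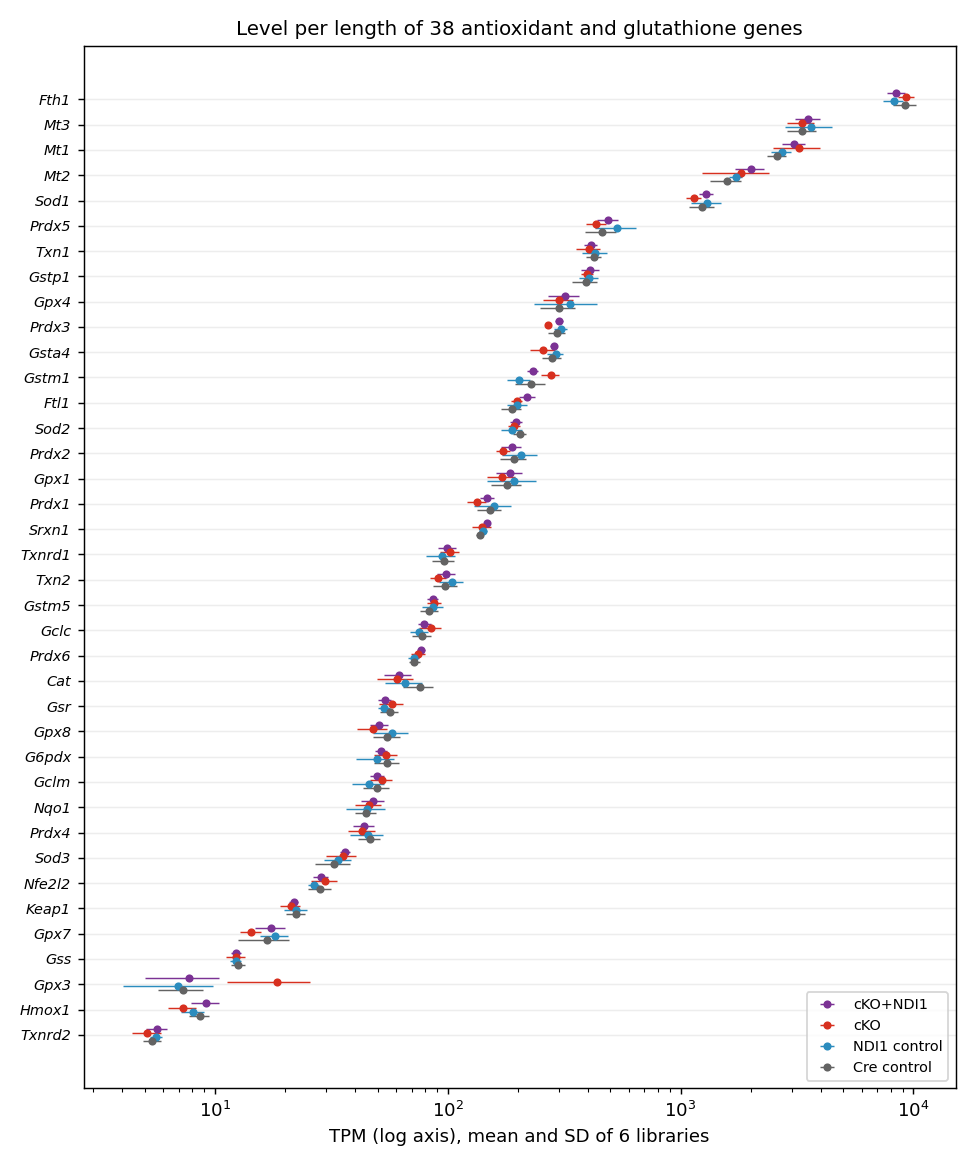
Level of the 38 genes per length (TPM, log axis) in the 4 genotype groups, ordered by mean level; points are means of 6 libraries and bars are the SD. Gpx3 is the gene whose cKO mean of 18.5 TPM stands apart from the means of the other groups, which lie between 6.93 and 7.73 TPM.

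The promoter windows of 5 genes show where the letters of an antioxidant response element lie, and where they are missing, among genes of the list that are often read as NRF2 targets or that carried a result. Each line gives the 150 bases before the RefSeq start of transcription, 5′ to 3′ on the gene's strand, with the element's core letters TGACNNNGC, on either strand, in capitals.
Gpx3: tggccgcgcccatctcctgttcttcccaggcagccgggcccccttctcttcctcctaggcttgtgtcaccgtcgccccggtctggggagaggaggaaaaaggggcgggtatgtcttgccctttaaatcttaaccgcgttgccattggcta
Gclm: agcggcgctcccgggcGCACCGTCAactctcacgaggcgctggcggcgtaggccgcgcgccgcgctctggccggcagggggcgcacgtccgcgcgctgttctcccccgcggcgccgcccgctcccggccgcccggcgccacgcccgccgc
Txnrd1: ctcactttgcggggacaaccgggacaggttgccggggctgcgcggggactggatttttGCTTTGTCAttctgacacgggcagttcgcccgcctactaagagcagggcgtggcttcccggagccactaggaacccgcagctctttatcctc
Prdx1: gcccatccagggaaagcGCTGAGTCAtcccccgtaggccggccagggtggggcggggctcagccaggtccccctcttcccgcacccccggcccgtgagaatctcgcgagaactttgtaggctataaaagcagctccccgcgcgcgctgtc
G6pdx: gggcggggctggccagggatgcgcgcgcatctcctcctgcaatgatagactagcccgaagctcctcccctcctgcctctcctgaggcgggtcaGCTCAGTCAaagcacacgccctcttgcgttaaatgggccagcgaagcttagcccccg
The windows are from RefSeq on build GRCm38.p6, at chr11:54902704-54902853 (plus strand) for Gpx3, chr3:122245407-122245556 (plus) for Gclm, chr10:82859056-82859205 (plus) for Txnrd1, chr4:116685449-116685598 (plus) for Prdx1, and chrX:74428881-74429030 (minus) for G6pdx. The windows of Gpx3 and G6pdx lie inside the deposited gene models, which begin upstream of the RefSeq starts, and that of Prdx1 runs into its model. The window of Gpx3 holds no such letters. Counting back from -1 at the base before the start, the letters begin at -134 in Gclm, -92 in Txnrd1, -133 in Prdx1 and -57 in G6pdx.

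RefSeq windows of 250 bases before to 50 after the start were at hand for 32 of the 38 genes. The letters occurred in 9 of these 32, or 28.1%, and in 3781 of 27025 genes with a window, or 14%. The 9 genes were Nfe2l2, Srxn1, Gstm5, Gclm, Prdx1, Mt2, Txnrd1, Sod1 and G6pdx. None of these 9 passed the test in any comparison, and their log2 fold changes in cKO against Cre control lay between -0.17 for Prdx1 and 0.21 for Mt2. Gpx3, Gstm1 and Cat had windows without the letters. A match of letters is no evidence of binding, and a window without them says nothing of elements elsewhere.

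Gpx3 encodes the secreted, selenium-containing glutathione peroxidase that circulates in plasma (ENSMUSG00000018339, chromosome 11, 54902453 to 54910377 on mm10, plus strand). Its level was 6.46, 13.8 and 23 CPM in cKO (lowest, median and highest of 6 libraries), against 3.93, 5.83 and 7.25 CPM in Cre control. Of the 6 cKO libraries, 5 lay above every Cre control library, and cKO replicate M3, at 6.46 CPM, lay among them. The log2 fold change was 1.34 ± 0.26 (SE), a 2.54-fold rise with a 95% interval of 1.76 to 3.67 (adjusted p = 0.00342). In whole tissue, more cells of a type and more RNA per cell cannot be told apart.

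With NDI1 and the knockout together, Gpx3 had 3.59, 5.10 and 8.99 CPM in cKO+NDI1, against 6.46, 13.8 and 23 CPM in cKO. It fell by 1.27 ± 0.26 on the log2 scale, to 0.416 of its level in cKO (adjusted p = 0.0354). This call was fragile: the value without 1 library ran from -1.46 to -1.12, and the call was lost without any 1 of cKO replicates M1, M2, F1, F2 and F3, cKO+NDI1 replicates M1, M2, F1, F2 and F3, or Cre control replicate M1. Against the NDI1 control, at 3.68, 4.47 and 10.8 CPM, the difference of cKO+NDI1 was 0.11 ± 0.27 (95% interval -0.44 to 0.66, adjusted p = 0.998). The interaction of knockout and NDI1, the knockout's effect with NDI1 minus that without it, was -1.24 ± 0.37 for Gpx3, the lowest of the 38 genes, with an adjusted p of 0.675.

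Some markers of vascular cells were also higher in cKO than in Cre control. Summed over 10 pericyte and smooth muscle markers, of which 4 passed as higher, the level was 429 to 478 CPM in cKO, against 343 to 430 CPM in Cre control, and it was 421 to 501 CPM in cKO+NDI1. Summed over 10 endothelial markers, of which 1 passed as higher, it was 355 to 438 CPM in cKO, against 343 to 385 CPM in Cre control, and 377 to 428 CPM in cKO+NDI1. In NDI1 control, which lacks the knockout, the pericyte and smooth muscle sum was 396 to 444 CPM and the endothelial sum 374 to 411 CPM. The median of the endothelial sum was 387 CPM in cKO+NDI1, 431 CPM in cKO, 390 CPM in NDI1 control and 364 CPM in Cre control. The part of these markers in the Gpx3 result was not tested.

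Markers of choroid plexus, meninges and blood varied between mice, and none of them passed in this comparison. Choroid plexus markers, 10 genes, summed to 1130 to 3780 CPM in cKO, against 1140 to 4260 CPM in Cre control. Meningeal fibroblast markers, 10 genes, gave 326 to 436 CPM in cKO, against 357 to 442 CPM in Cre control. Red blood cell markers, 6 genes, gave 206 to 625 CPM in cKO, against 335 to 641 CPM in Cre control. No marker of these lists was at 0 in a group, and the part of the marked cells in the Gpx3 result was not tested.

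**Figure D3:**
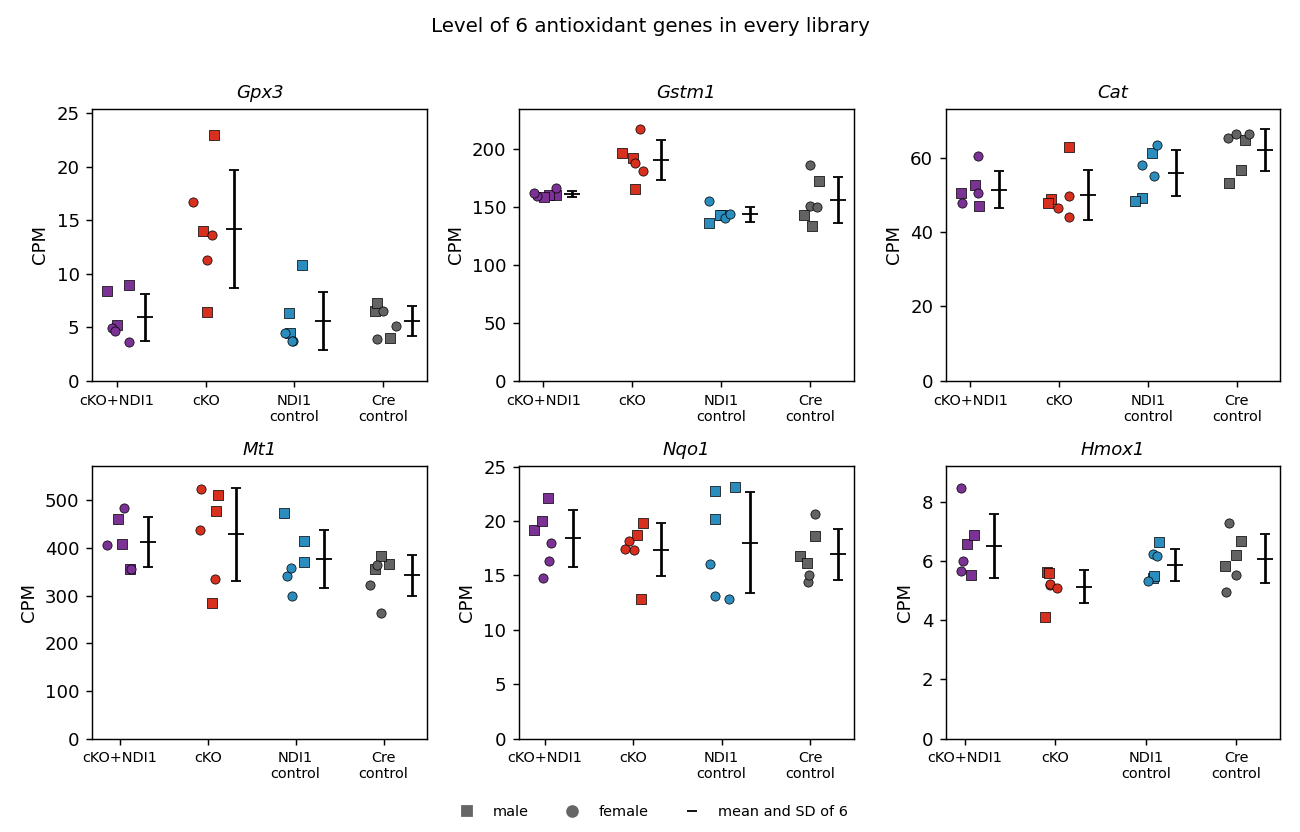
Level in CPM (axes from 0) of 6 genes in every library, squares for males and circles for females, with the mean and SD of 6 libraries beside the points. Gpx3 lies at 11.3 CPM or more in 5 of 6 cKO libraries, Gstm1 has its highest mean in cKO, Cat has its highest mean in Cre control, and the groups overlap for Mt1, Nqo1 and Hmox1.

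The other 4 glutathione peroxidase genes did not pass in any comparison. Gpx1, the abundant cytosolic enzyme, had 115, 137 and 181 CPM in cKO, against 107, 155 and 188 CPM in Cre control (log2 fold change -0.05 ± 0.17, adjusted p = 0.932). Gpx4, which reduces lipid hydroperoxides within membranes and so guards against ferroptosis, had 265, 359 and 438 CPM in cKO, against 252, 356 and 441 CPM in Cre control (0.05 ± 0.19, adjusted p = 0.941). The 2 groups covered nearly the same range for both genes.

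Gpx7 and Gpx8, peroxidases of the endoplasmic reticulum, had log2 fold changes of -0.23 ± 0.17 and -0.20 ± 0.14 in cKO against Cre control. In cKO+NDI1 against cKO, values for these 4 genes ran from 0.06 for Gpx4 to 0.30 for Gpx7. Gpx3 was the only gene of its family on the list to pass in a comparison of genotype groups.

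Cat encodes catalase, the peroxisomal enzyme that splits hydrogen peroxide (ENSMUSG00000027187, chromosome 2, 103453849 to 103485160, minus strand). It had 44.1, 48.4 and 62.9 CPM in cKO, against 53.1, 65.1 and 66.4 CPM in Cre control. Of the cKO libraries, 5 were below every Cre control library, at 49.6 CPM or less, and cKO replicate M3 was the exception at 62.9 CPM. The log2 fold change was -0.31 ± 0.09, which is 0.806 of the control level (95% interval 0.711 to 0.915, adjusted p = 0.0413).

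The decrease of Cat lay close to the threshold. Its value ran from -0.40 to -0.27 when 1 library was left out, and the call was lost without any 1 of Cre control replicates M2, M3, F1, F2 and F3 or cKO replicates M1, M2, F1, F2 and F3. It was -0.51 in females alone (adjusted p = 0.0309) and -0.14 in males alone (adjusted p = 0.557); the difference between the sexes was not tested.

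In cKO+NDI1 Cat had 46.9, 50.5 and 60.4 CPM, a range that overlaps that of cKO. The difference between them was 0.04 ± 0.09 (95% interval -0.15 to 0.22, adjusted p = 0.949). Set against Cre control, Cat in cKO+NDI1 was at -0.27 ± 0.09 (adjusted p = 0.133), and set against NDI1 control, with 48.3, 56.6 and 63.3 CPM, at -0.12 ± 0.09 (adjusted p = 0.998).

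Markers of astrocytes and Bergmann glia were also lower in sum in cKO than in Cre control. Their sum over 11 genes was 5240 to 5780 CPM in cKO, against 5990 to 6330 CPM in Cre control, and 5390 to 5780 CPM in cKO+NDI1, against 5800 to 6520 CPM in NDI1 control. The ranges did not overlap in either pair. In cKO against Cre control 2 of the 11 markers passed as lower, and in cKO+NDI1 against NDI1 control 0 did. The part of these markers in the Cat result was not tested.

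The superoxide dismutase genes did not pass in any comparison. Sod1, the copper and zinc enzyme of the cytosol, had 160, 179 and 201 CPM in cKO, against 147, 201 and 235 CPM in Cre control (-0.11 ± 0.11, adjusted p = 0.688). Sod2, the manganese enzyme that works inside mitochondria, was the most tightly measured gene of the list. It had 177, 180 and 183 CPM in cKO, against 179, 189 and 201 CPM in Cre control, with a log2 fold change of -0.07 ± 0.04 and a 95% interval of -0.16 to 0.01 (adjusted p = 0.374). Sod3, which is secreted into the extracellular space, was at 0.12 ± 0.11.

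None of the 6 peroxiredoxin genes passed in any comparison, and their median in cKO against Cre control was -0.10. Prdx1 and Prdx2, the cytosolic peroxiredoxins, were at -0.17 ± 0.12 and -0.13 ± 0.13. Prdx1 had 159, 184 and 220 CPM in cKO, against 163, 211 and 263 CPM in Cre control, and Prdx2 had 347, 376 and 462 CPM in cKO, against 325, 427 and 541 CPM in Cre control. The cKO ranges lay inside, or nearly inside, the wider Cre control ranges.

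Prdx3, the mitochondrial peroxiredoxin, had 88.1, 97.8 and 105 CPM in cKO, against 82.4, 110 and 116 CPM in Cre control (-0.12 ± 0.08, adjusted p = 0.483). In cKO+NDI1 it had 101, 110 and 118 CPM, which is 0.17 ± 0.08 relative to cKO (adjusted p = 0.585). Prdx4, of the endoplasmic reticulum, was at -0.09 ± 0.14 in cKO against Cre control.

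Prdx5, found in mitochondria, peroxisomes and cytosol, was at -0.06 ± 0.15, and Prdx6, which also acts on phospholipids, at 0.05 ± 0.07. Prdx4 had 25.7, 29.9 and 40.7 CPM in cKO, against 26, 34.6 and 40.4 CPM in Cre control. Prdx5 had 398, 458 and 564 CPM in cKO, against 354, 498 and 647 CPM in Cre control, and Prdx6 had 172, 212 and 223 CPM in cKO, against 165, 207 and 219 CPM in Cre control. Except for Prdx6, the peroxiredoxin values were negative in cKO against Cre control; each of those 5 turned positive in at least 1 alternative fit, so no direction is given for the family.

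The thioredoxin system supplies electrons to the peroxiredoxins. Its 5 genes had a median of -0.05 in cKO against Cre control, with values from -0.10 for Txn2, mitochondrial thioredoxin, to 0.09 for Txnrd1, the cytosolic reductase and a common NRF2 target. Txnrd1 had 77.4, 84.0 and 96.4 CPM in cKO, against 75.7, 79.1 and 86.4 CPM in Cre control (0.09 ± 0.06, adjusted p = 0.504). Srxn1, sulfiredoxin, which restores over-oxidised peroxiredoxins, was at 0.04 ± 0.08, Txn1, cytosolic thioredoxin, at -0.05 ± 0.12, and Txnrd2 at -0.07 ± 0.10. Whether counting used strand is not given in the sources used here, so the levels of members that overlap another gene are uncertain.

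Glutathione is made by the glutamate-cysteine ligase, with Gclc as the catalytic and Gclm as the modifier subunit, and then by Gss; Gsr reduces it after use and G6pdx supplies the NADPH. No gene of these 5 passed in any comparison. Gclc had 64.7, 68.7 and 78.8 CPM in cKO, against 58.5, 64.7 and 68.9 CPM in Cre control (0.13 ± 0.06, 95% interval 0.01 to 0.25, adjusted p = 0.215). Gclm had 93.2, 110 and 118 CPM in cKO, against 92.3, 104 and 112 CPM in Cre control (0.08 ± 0.06, adjusted p = 0.555). Gss, Gsr and G6pdx lay between -0.03 and 0.04. Gss overlaps Acss2, and G6pdx overlaps Ikbkg, each on the opposite strand.

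Gstm1 encodes a mu-class glutathione transferase that couples glutathione to electrophiles (ENSMUSG00000058135, chromosome 3, 108012255 to 108017973, minus strand). It had 165, 190 and 217 CPM in cKO, against 133, 150 and 186 CPM in Cre control, and the groups overlapped. Its log2 fold change was 0.29 ± 0.07, a 1.22-fold rise with a 95% interval of 1.11 to 1.35 (adjusted p = 0.0149). The call was lost in the fit of cKO and Cre control libraries alone (0.29, adjusted p = 0.115), and also in males alone and in females alone.

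In cKO+NDI1 Gstm1 had 158, 160 and 166 CPM, and 5 of its 6 libraries were below every cKO library, with the other at 166 CPM beside a lowest cKO value of 165 CPM. The difference from cKO was -0.24 ± 0.07 (95% interval -0.38 to -0.10, adjusted p = 0.207). NDI1 control had 136, 143 and 155 CPM, all below the 158 CPM of the lowest cKO+NDI1 library. Gstm1 was the only one of the 38 genes with groups without overlap in the 5 genotype pairs compared. Over all genes tested, the share with groups without overlap was 0.314% for cKO+NDI1 and NDI1 control. It was 0.948% for cKO+NDI1 and cKO, and 1.58% for cKO+NDI1 and Cre control. Between cKO and Cre control it was 2.69%, and between NDI1 control and Cre control 0.386%. For Gstm1 in cKO+NDI1 against NDI1 control the test gave 0.17 ± 0.07 (adjusted p = 0.982), in a comparison in which 0% of the 15300 genes passed.

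None of the other mu-class genes tested passed in any comparison, which does not show that they were unchanged. In cKO against Cre control Gstm5, a member of the list, was at 0.08 ± 0.10, and among related genes outside it Gstm2 was at 0.18 ± 0.19, Gstm4 at 0.05 ± 0.13, Gstm6 at -0.46 ± 0.26 and Gstm7 at 0.18 ± 0.10. These genes are similar in sequence, so reads can be divided among them with some uncertainty. Gsta4, which clears aldehydes of lipid peroxidation, was at -0.12 ± 0.11, and Gstp1, the pi-class enzyme, at 0.03 ± 0.10.

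The metallothionein genes encode small cysteine-rich proteins that bind zinc and copper; Mt1 and Mt2 are widely induced by metals and stress hormones, and Mt3 is enriched in brain. Mt1 had 285, 458 and 523 CPM in cKO, against 263, 360 and 382 CPM in Cre control (0.33 ± 0.13, 95% interval 0.06 to 0.60, adjusted p = 0.162). Mt2 had 169, 227 and 386 CPM in cKO, against 166, 211 and 270 CPM in Cre control (0.21 ± 0.16, adjusted p = 0.536). In both genes some cKO libraries were above all controls while others lay within their range. Mt1 passed in 1 alternative, the fit without cKO replicate M3, which holds its lowest value in cKO.

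Mt3 had 361, 435 and 575 CPM in cKO, against 328, 467 and 530 CPM in Cre control (0.01 ± 0.16, adjusted p = 0.984). In cKO+NDI1, Mt1 had 355, 408 and 483 CPM and Mt2 had 224, 269 and 332 CPM. Relative to Cre control these gave 0.27 ± 0.13 for Mt1 (adjusted p = 0.365) and 0.36 ± 0.16 for Mt2 (adjusted p = 0.297), and relative to cKO -0.06 ± 0.13 and 0.15 ± 0.16.

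The NRF2 pathway's own regulators and its best-known targets did not pass in any comparison. Nfe2l2, which encodes NRF2, had 25.5, 27.7 and 34.9 CPM in cKO, against 23.4, 27.1 and 30.2 CPM in Cre control (0.07 ± 0.08, adjusted p = 0.692). Keap1, its inhibitor, had 58.9, 62.8 and 73.8 CPM in cKO, against 62.2, 66.2 and 74.9 CPM in Cre control (-0.07 ± 0.06, adjusted p = 0.588). NRF2 is regulated mainly at the protein level, which these data do not measure.

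Nqo1, a quinone reductase that is a standard readout of NRF2, had 12.8, 17.8 and 19.8 CPM in cKO, against 14.4, 16.5 and 20.6 CPM in Cre control. Its log2 fold change was 0.04 ± 0.13, with a 95% interval of -0.23 to 0.30 (adjusted p = 0.927). Hmox1, the inducible haem oxygenase, had 4.10, 5.21 and 5.63 CPM in cKO, against 4.95, 6.02 and 7.29 CPM in Cre control (-0.23 ± 0.12, adjusted p = 0.299). In cKO+NDI1 Hmox1 had 5.54, 6.30 and 8.48 CPM, which is 0.34 ± 0.12 relative to cKO (95% interval 0.10 to 0.58, adjusted p = 0.322).

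The ferritin subunits store iron and keep it from feeding the formation of hydroxyl radicals. Fth1 had 1600, 1990 and 2350 CPM in cKO, against 1420, 2060 and 2290 CPM in Cre control (0.03 ± 0.10, adjusted p = 0.923). Ftl1, the light chain, had 174, 203 and 214 CPM in cKO, against 150, 189 and 230 CPM in Cre control (0.09 ± 0.11, adjusted p = 0.748). Neither passed in any comparison.

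Relative to cKO, the 38 genes in cKO+NDI1 had a median log2 fold change of 0.06, with 27 positive and 11 negative values, beside a median of -0.008 over all genes; the median of the 38 was 0.17 in males alone and -0.01 in females alone. Apart from Gpx3, the values ran between -0.24 for Gstm1 and 0.34 for Hmox1. For 35 of the 38 genes the 95% interval lay within 0.5 of 0, the exceptions being Gpx3, Gpx7 and Hmox1. Oligodendrocyte markers differed between these groups as well: their sum over 10 genes was 9460 to 11400 CPM in cKO+NDI1, against 11900 to 18700 CPM in cKO. Of the 10, 4 were lower by the test, in a comparison in which 0.209% of all genes passed. Their sum was 10000 to 12500 CPM in NDI1 control and 12500 to 14600 CPM in Cre control. Relative to NDI1 control, their median log2 fold change in cKO+NDI1 was -0.15, and 0 passed. The part of these markers in the values of the 38 genes was not tested.

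In cKO+NDI1 against NDI1 control, no gene of the 38 passed, and 0% of the 15300 genes tested did (0 by edgeR, 23 by DESeq2, 0 by limma-voom, 686 at an unadjusted p under 0.05). Of the 38, 1 had an unadjusted p under 0.05, Gstm1, and DESeq2 and limma-voom called 0. Their median was -0.03 (0.10 without the 3 libraries that depended most on gene length), and 35 of 38 intervals lay within 0.5 of 0, the exceptions being Gpx3, Gpx4 and Gpx8.

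In cKO+NDI1 against Cre control, 0 of the 38 passed by edgeR, DESeq2 or limma-voom. An unadjusted p under 0.05 was found for 2064 of all 15300 genes, and for 4 of the 38: Cat, Mt1, Mt2 and Ftl1. There 191 of 15300 genes passed, or 1.25%, with 129 higher and 62 lower. This split moves with the scaling, to 194 higher and 31 lower with library size alone and 178 higher and 148 lower with the length trend removed. The median of the 38 was 0.06, and 35 intervals lay within 0.5 of 0, the exceptions being Gpx3, Mt1 and Mt2.

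NDI1 by itself left the list without a call. In NDI1 control against Cre control 0 of the 38 passed by edgeR, DESeq2 or limma-voom, and 0 had an unadjusted p under 0.05. There 1 of 15300 genes, or 0.00654%, passed (69 by DESeq2, 3 by limma-voom, 1408 at an unadjusted p under 0.05). The median of the 38 was 0.11, with 28 positive values, and 31 intervals lay within 0.5 of 0. That median was 0.05 with the length trend removed, 0 in females alone and -0.09 without the 3 libraries that depended most on gene length, of which 2 are NDI1 controls and 1 a Cre control, so no direction is given. The interaction of knockout and NDI1 likewise gave 0 of 38, and 0% of the 15300 genes (0 by edgeR, 7 by DESeq2, 0 by limma-voom, 792 at an unadjusted p under 0.05); among the 38, Gpx3 and Hmox1 had an unadjusted p under 0.05, and DESeq2 and limma-voom called 0.

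Between males and females 0 of the 38 genes passed by edgeR, DESeq2 or limma-voom, where 13 of 15300 genes, or 0.085%, did. An unadjusted p under 0.05 was found for 2582 of the 15300 genes, and for 11 of the 38, all higher in males. The median of the 38 was 0.13, with 28 values positive in male against female. This shift moved with gene length: with the dependence on gene length removed from each library the median of the 38 was 0.05, and without the 3 libraries in which that dependence was steepest it was 0.02.

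The steep libraries show how the 38 genes vary within groups. Log2 level changed with each doubling of gene length by 0.105 in Cre control replicate F3, -0.104 in NDI1 control replicate M1 and -0.125 in NDI1 control replicate M2, while the other libraries lay within 0.1 of 0. Several abundant members stood apart in these libraries. Gpx4 had 636 and 608 CPM in NDI1 control replicates M1 and M2 and 252 CPM in Cre control replicate F3. Across the 24 libraries, after group and sex means were removed, Gpx1 and Gpx4 had a Pearson r of 0.98, Prdx2 and Prdx5 also 0.98, Sod1 and Gpx4 0.94, Mt1 and Mt2 0.87, and Mt1 and Mt3 0.51. These genes were measured in the same libraries, so the values are a description. Their deposited lengths differ, with 646 bases for Sod1 and 4744 for Gpx4, and the part of the length trend in these values was not tested.

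**Figure D4:**
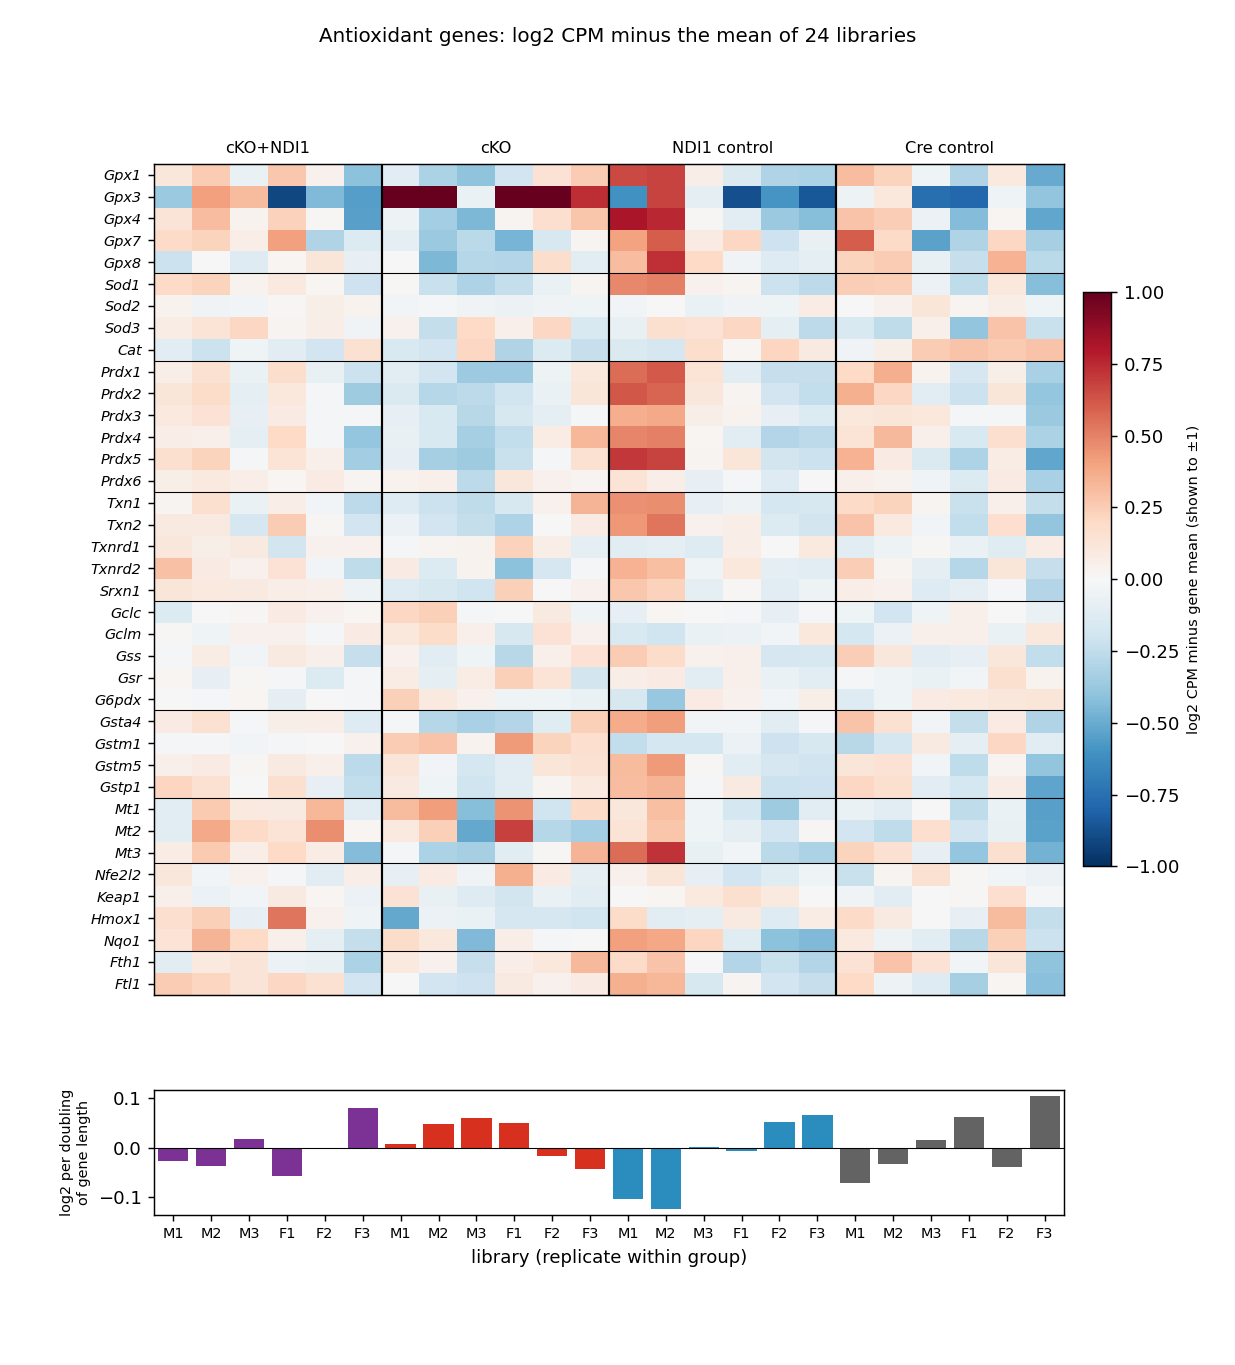
Upper panel: log2 CPM of the 38 genes in each of 24 libraries minus the gene's mean, in colour from -1 to 1 (more extreme values are drawn at the ends). Lower panel: each library's change in log2 level per doubling of gene length; NDI1 control replicates M1 and M2, with the lowest slopes, have high values for most peroxidase and peroxiredoxin genes, and Cre control replicate F3, with the highest slope, has low ones.

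Likeness to all genes tested was computed only for the members that passed, so they cannot be set against the other members. Over the 24 libraries, group and sex means removed, the genes most like Gpx3 were Inmt (r = 0.76), Gm15697 (0.72) and Gsdme (0.72), those most like Cat were Igsf3 (0.92), Adam19 (0.90) and Man1c1 (0.90), and those most like Gstm1 were Ndrg2 (0.72), Pnpla2 (0.72) and Sh3d21 (0.71). None of these belongs to the list.

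Other genes of the same pathways, 116 genes in 4 lists of which 107 could be tested, gave a similar picture in cKO against Cre control: 2 were higher, 2 lower, and their median was -0.01. Over all 15300 genes tested in this comparison, 4.87% passed and 2.69% had groups without overlap. Of 28 other NRF2 pathway genes 1 was higher, Maff, a small MAF protein that pairs with NRF2 or its rivals. It had 2.44, 3.17 and 24.3 CPM in cKO, against 1.16, 1.5 and 2.27 CPM in Cre control; every cKO library was above every control. Its log2 fold change was 2.02 ± 0.48 (adjusted p = 0.0153), and 1.12 without cKO replicate F1 (adjusted p = 0.0410); the call was lost with no filter on low counts, with the groups compared alone and in males alone (0.80).

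Of 31 other glutathione genes tested, 1 was lower: Glo1, the glyoxalase that clears methylglyoxal with glutathione. It had 75.4, 79.6 and 82.9 CPM in cKO, against 85.9, 90.8 and 101 CPM in Cre control, with no overlap. The log2 fold change was -0.20 ± 0.06 (adjusted p = 0.0420), and the call was lost in 10 of the 24 fits without 1 library: without Cre control M2, M3, F1 or F2, cKO M1, M2, M3, F1 or F2, or cKO+NDI1 F3. It was also lost in 7 of 12 other alternatives (-0.25 to -0.18 over the 12). Nnt, the mitochondrial transhydrogenase that makes NADPH from NADH, was at -0.23 ± 0.08 (adjusted p = 0.104).

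Of 30 other thiol and selenoprotein genes 1 was higher: Txnip, which binds and inhibits thioredoxin and responds to glucose. It had 45.9, 65.8 and 88.7 CPM in cKO, against 32.5, 37.1 and 40.2 CPM in Cre control, with no overlap (0.81 ± 0.12, 1.76-fold, adjusted p = 0.000591). In cKO+NDI1 it had 42.0, 48.6 and 71.3 CPM, again above every Cre control library (0.51 ± 0.12, adjusted p = 0.0350, a call lost without any 1 of Cre control replicates M2, M3, F1 and F3 or cKO+NDI1 replicates M1, M2 and F2, and in 3 of 12 other alternatives, among them females alone at 0.33). Relative to cKO this was -0.30 ± 0.12 (adjusted p = 0.425), and relative to NDI1 control, at 28.9, 33.9 and 40.6 CPM, 0.61 ± 0.12 (adjusted p = 0.127). Txnip was the only one of the 107 genes to pass in a comparison other than cKO against Cre control.

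Of 18 other metal handling genes tested 1 was lower: Slc40a1, ferroportin, the iron exporter. It had 4.75, 11.1 and 12.9 CPM in cKO, against 13.9, 16.6 and 17.5 CPM in Cre control, with no overlap (-0.62 ± 0.17, adjusted p = 0.0365). The call was lost without any 1 of Cre control replicates M1, M2, M3, F1 and F2 or cKO replicates M1 and M2, where the value ran from -0.64 to -0.57, and in 5 of 12 other alternatives (-0.72 to -0.54 over the 12). In cKO+NDI1 it had 9.69, 12.6 and 18.8 CPM, a range that overlaps those of cKO and of Cre control.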

How the data were processed

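Per the labels' protocols, frozen whole cerebellum was extracted on columns with DNase treatment, and libraries were made from polyA-selected RNA. The tools named are STAR, HTSeq, Trimmomatic and bcl2fastq, and the build is mm10, per the submitters' processing notes; versions, annotation release and strand setting are not given in the sources used here. The authors deposited raw read counts per gene and library, with no normalization; 42462 of 43430 genes had a symbol and 15557 had no read at all. All library columns were used. No 2 libraries of a group were copies (smallest chi-square per degree of freedom 4.397).

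Counts were scaled with TMM, low counts removed with filterByExpr, and 15300 genes tested with edgeR 4.0.16 under R 4.3.3; genotype group and sex were the terms of a single model over the 24 libraries. Levels are CPM of TMM-scaled libraries; logs used a prior count of 2; TPM used the deposited gene lengths. Replicate numbers have no stated meaning and did not pair libraries. The code was tested on simulated data. Alternatives were RLE factors, library size alone, a length trend removed (spline with 5 degrees of freedom), no filter, DESeq2 1.42.0, limma-voom (limma 3.58.1), thinning to 7584374 counts, the groups compared alone, each sex alone, a replicate block and each library left out. Leaving out 3 libraries with steep length trends was chosen after seeing the data.

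The members and the lists (member classes, other pathway genes, cell type markers) were chosen with earlier results of these data known. All members are accounted for; pathway genes are named where they passed, and the Gstm genes and Nnt were named after their values were seen. Likeness is Pearson's r of log2 CPM with group and sex means removed. The knockout itself was not checked further.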

Additional observations from a re-analysis of the deposited data

Results flagged for a closer look

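Among 152 combinations of a gene and a group, 13 held a library far from the other 5 of its group (a gap above Dixon's 95% critical value). Chance gives about 1 in 20.

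In cKO+NDI1, 5 were flagged. Replicate F3, the library with the lowest total, was low for Mt3 at 337 CPM (others 477 to 544), Ftl1 at 176 CPM (219 to 239) and Gstm5 at 87.5 CPM (106 to 112). Replicate F1 was low for Txnrd1 at 72.5 CPM (84.6 to 89.1) and G6pdx at 60.8 CPM (64.2 to 65.7).

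In cKO, 6 were flagged. Replicate M3, also the library with the lowest Gpx3 of its group, was high for Cat at 62.9 CPM (44.1 to 49.6) and low for Prdx6 at 172 CPM (211 to 223) and Nqo1 at 12.8 CPM (17.3 to 19.8). Replicate M1 was high for Keap1 at 73.8 CPM (58.9 to 63.7) and low for Hmox1 at 4.10 CPM (5.10 to 5.63). Replicate F1 was high for Nfe2l2 at 34.9 CPM (25.5 to 28.9).

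In the controls, 2 were flagged: NDI1 control replicate M2 was high for Gpx3 at 10.8 CPM (3.68 to 6.31), and Cre control replicate F3, the library with the steepest positive length trend, was low for Prdx3 at 82.4 CPM (105 to 116). Without cKO replicate M3 the fold change of Cat was stronger, at -0.40 on the log2 scale.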

How the results depend on the processing

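No gene named as passing turned its direction in any alternative run. In cKO against Cre control the count of 3 genes of the 38 became 1 (Gpx3) with the groups compared alone and 0 with males alone, and ran from 2 to 4 with 1 library left out; Gpx3 passed in all 24 fits without 1 library and in 11 of 12 other alternatives (1.21 to 1.53), Gstm1 in 24 and 9 (0.24 to 0.33), and Cat in 14 and 6 (-0.51 to -0.14). With males alone Gpx3 was at 1.25 (adjusted p = 0.136). In cKO+NDI1 against cKO the count of 1 became 0 with no filter, limma-voom, the groups compared alone, males alone and the replicate block, and ran from 0 to 1 with 1 library left out (0 in 11 of 24 fits). In the other comparisons the count was 0 in every alternative run. The cause of these changes was not tested; the sexes alone have 3 libraries a group. Over all genes, the count of 745 was 425 without a filter, 1159 by DESeq2, 263 with the groups compared alone, 38 in males and 364 in females; that of 32 was 21, 110, 13, 2 and 2 in the same settings, and that of 191 was 87, 491, 163, 14 and 2. Thinning gave 99 in place of 191, and the length trend removed 326. In NDI1 control against Cre control the 1 gene became 6 with the length trend removed and 2 with thinning, and the 0 of cKO+NDI1 against NDI1 control became 3 with thinning and 2 without a filter; DESeq2 gave 38 in place of 13 between the sexes. Replicate numbers did not pair libraries (14 of 36 correlations of same-numbered libraries over 0.1, from -0.47 to 0.47); with the replicate block 3 and 0 genes of the 38, and 754 and 20 genes in all, passed in the 2 comparisons, and Gpx3 was at -1.25 in cKO+NDI1 against cKO (adjusted p = 0.0550). Depth limits Gpx3, Hmox1 and Gpx7 most, with as few as 35, 36 and 43 reads in a library.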

Other observations

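Genes that respond to glucocorticoids, a class of hormone that also induces Mt1 and Mt2, were listed beside the metallothioneins. Of these 12 genes 2 were higher in cKO against Cre control by edgeR's test, Sult1a1 (0.74 ± 0.19, adjusted p = 0.0255) and Cdkn1a (0.81 ± 0.20, adjusted p = 0.0178), 11 had a positive log2 fold change, and the median was 0.59. In that comparison 4.87% of all genes tested passed. A single library stood apart: the 12 genes summed to 1170 CPM in cKO replicate F1 and to 510 to 673 CPM in the other 5 cKO libraries, against 450 to 660 CPM in Cre control. Without cKO replicate F1 the median was 0.19, 9 genes were positive, and Sult1a1 and Cdkn1a still passed, Cdkn1a at 0.46 (adjusted p = 0.0253). The call of Sult1a1 was lost without any 1 of Cre control replicates M2 and M3 or cKO replicates M1, M2 and F3 and in 4 of 12 other alternatives, and that of Cdkn1a in 4 of 12 other alternatives. In cKO+NDI1 against cKO 0 passed, 9 of 12 were negative, and the median was -0.17, which turned to 0.08 without cKO replicate F1. Fkbp5, a classic member of the class, had 9.57, 15.5 and 34.6 CPM in cKO, against 8.63, 10.3 and 13.4 CPM in Cre control (0.77 ± 0.28, adjusted p = 0.120).

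Transcripts of the mitochondrial genome took 2.07% to 3.35% of counts in cKO, against 1.48% to 2.23% in Cre control. They took 2.04% to 2.99% in cKO+NDI1 and 1.78% to 2.89% in NDI1 control, which lacks the knockout. The microglia markers, 10 genes, summed to 195 to 256 CPM in cKO, against 202 to 246 CPM in Cre control, with 0 passing by edgeR's test.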
